A study of Mus musculus with 10 samples.

Results

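A set of 9 genes of catecholamine and relaxin signalling was sought in the adult mouse ventricle: the relaxin receptor Rxfp1, the adrenergic receptors Adrb1, Adra1a and Adra1b, the adenylyl cyclases Adcy5 and Adcy6, the protein kinase A (PKA) subunits Prkaca and Prkar1a, and the PKA partner Akip1. A gene was measured here where a probe set of the array carried its symbol and no other. This held for 6 of the 9 genes, out of 19938 genes named in this way, and each of the 6 was read by 1 probe set. Adrb1, Adra1a and Prkaca were not analysed here; the probe set that names Prkaca also names another gene. The genes were chosen with their difference between the groups already known, so their own values below are a description, with no test.

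The arrays came from cardiac biventricle of 10 mice, 1 array per mouse. In the first group, 5 mice titled PGC-1a-/-bf/f/MerCre received tamoxifen at 2 months of age, 50 mg/kg on each of 2 days, and the genotype label calls them knockout for PGC-1a and PGC-1b. In the second group, 5 mice titled PGC-1a-/- received the sunflower seed oil alone, and the genotype label calls them knockout for PGC-1a with PGC-1b expression unaffected. All 10 hearts were taken 1 month after injection, at 3 months of age, and all 10 mice are labelled as lacking PGC-1a. The source names give both groups floxed PGC-1b alleles and MerCre, a Cre recombinase switched on by tamoxifen, whereas the titles give these to the tamoxifen group alone. A group with intact PGC-1a is not analysed here. Tamoxifen, MerCre (its presence by the titles, its switching on by the source names) and the labelled loss of PGC-1b cannot be told apart. The promoter that drives MerCre is not named in the labels used here, and deleted and undeleted cells were measured together.

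Catecholamines reach the cardiomyocyte through beta receptors, which raise cyclic AMP by way of the G protein Gs and adenylyl cyclase, and through alpha-1 receptors, which act by way of Gq and phospholipase C. Relaxin, a peptide hormone, acts on Rxfp1, which also raises cyclic AMP. Cyclic AMP binds the regulatory subunits of PKA and frees its catalytic subunits, which phosphorylate calcium channels, phospholamban and sarcomere proteins and so speed and strengthen the beat. Anchoring proteins hold the kinase near its targets, and phosphodiesterases break cyclic AMP down.

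Before the members, the labels were checked on both targeted genes. Ppargc1b, which encodes PGC-1b, read 9.93, 10.15, 10.11, 9.93 and 10.03 in tamoxifen arrays 1 to 5, against 9.76, 9.69, 9.82, 9.65 and 9.90 in vehicle arrays 1 to 5 (log2 signal). It was higher, not lower, in the arrays labelled as its knockout (log2 fold change 0.27 ± 0.061, SE; limma adjusted p = 0.00518). Ppargc1a, which encodes PGC-1a and is labelled as knocked out in every mouse, read 10.95, 11.58, 11.13, 11.20 and 11.14 in tamoxifen arrays 1 to 5, against 10.83, 11.04, 10.71, 10.70 and 10.79 in vehicle arrays 1 to 5. All 10 values lay above the brightness filter of 6.55, so this probe set does not show the labelled loss in either group, and it was higher in the tamoxifen-labelled arrays, with overlap (log2 fold change 0.39 ± 0.095, SE; limma adjusted p = 0.00797). The sources used here do not place either probe set relative to the targeted part of its gene, and signal from beyond the deleted part would say nothing about the deletion. Neither knockout is shown by these signals, and the groups are therefore called tamoxifen-labelled and vehicle-labelled. All 8 listed cardiomyocyte markers passed the brightness filter, and the group means of their mean log2 signal differed by 0.013. All of them but Ryr2 were near the top of the scale and varied very little between arrays, with residual SDs larger than those of 0.5% of tested genes at most, so this small difference says little about the amount of cardiomyocyte RNA. Array medians ran from 7.18 to 7.31, with tamoxifen array 2 at the top and the other 9 at 7.24 or less.

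Of the 6 measured genes, 4 were higher in the tamoxifen-labelled ventricles (Rxfp1, Akip1, Prkar1a and Adcy5), 1 was lower (Adra1b), and Adcy6 did not reach the threshold. Rxfp1 and Akip1 stood more than 2-fold above the vehicle-labelled level, and the other 4 genes differed by 1.31-fold or less. These calls use limma with Benjamini-Hochberg adjustment at 0.05 over all 13870 genes bright enough to be tested, of which 13.7% were higher and 8.31% lower by the same rule. All 6 genes passed the brightness filter. In 5 of the 6 the groups did not overlap, against 16.7% of all tested genes. Since the genes were picked from this contrast, nothing is read from these counts. In whole ventricle, more cells of a type and more RNA per cell cannot be told apart.

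**Figure D1:**
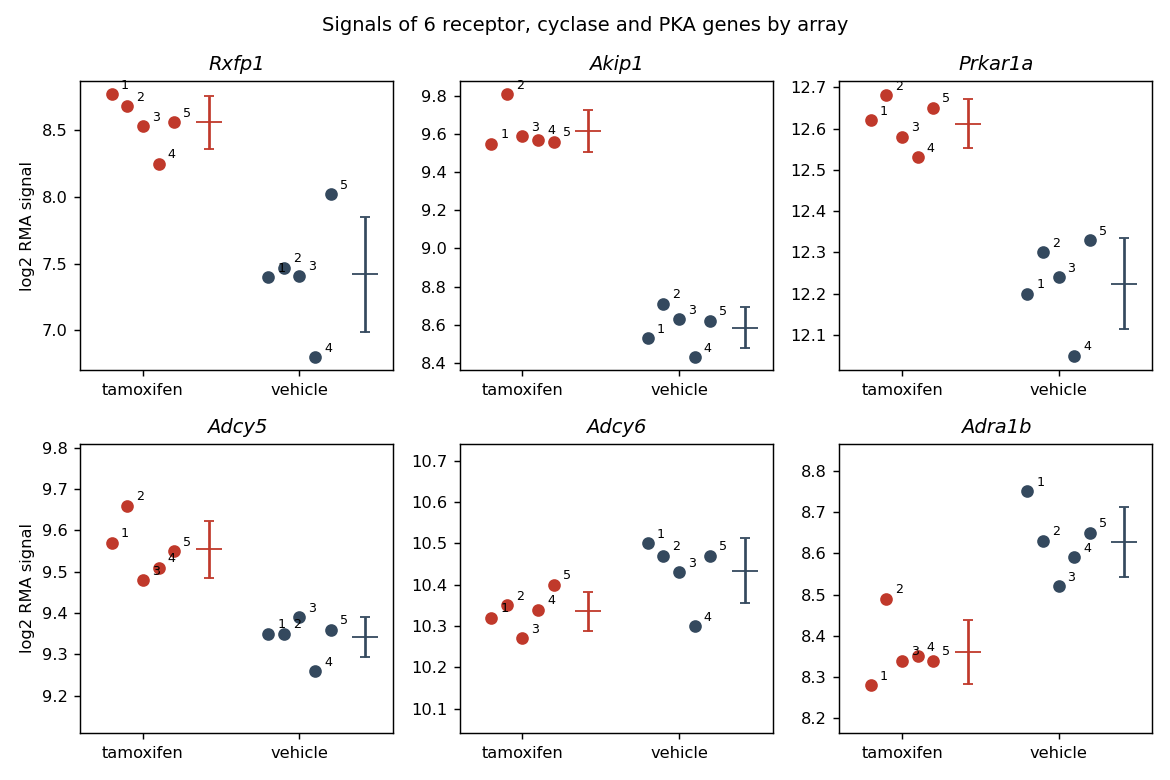
Log2 RMA signal (y axes, 1 panel per gene, scales differ) in the 5 tamoxifen-labelled arrays (left, red) and the 5 vehicle-labelled arrays (right, dark blue); points are arrays with their number, and the bars beside them are the group mean ± SD. The groups lie apart for Rxfp1, Akip1, Prkar1a, Adcy5 and Adra1b and overlap for Adcy6; vehicle array 5 for Rxfp1, at 8.02, comes within 0.23 of the lowest tamoxifen-labelled array.

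Rxfp1 encodes the receptor for relaxin, a protein with leucine-rich repeats outside the cell and a domain that spans the membrane and couples to Gs. Its log2 signal was 8.77, 8.68, 8.53, 8.25 and 8.56 in tamoxifen arrays 1 to 5, against 7.40, 7.47, 7.41, 6.80 and 8.02 in vehicle arrays 1 to 5. All 5 tamoxifen-labelled arrays were above all 5 vehicle-labelled ones, but vehicle arrays 4 and 5 lay far from the other 3, one below and one above. The mean was 8.56 ± 0.20 in tamoxifen-labelled and 7.42 ± 0.43 in vehicle-labelled arrays (SD, n = 5 each), a log2 fold change of 1.14 ± 0.16 (SE), or 2.20-fold. Leaving out vehicle array 4 gave 0.98 ± 0.12, and leaving out vehicle array 5 gave 1.29 ± 0.12.

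The spread of Rxfp1 between mice of the same group was itself wide. Its rank by spread is a description too, since the gene was picked with results of this contrast known. Its residual SD was 0.34 on the log2 scale, larger than that of 99.8% of the tested genes, whose median was 0.0942. The range was 0.52 over the tamoxifen-labelled arrays and 1.22 over the vehicle-labelled arrays, the second wider than the difference between the group means. In the relaxin family 2 further genes were bright enough to test, and neither was called. Rxfp4, the receptor of insulin-like peptide 5, had a log2 fold change of 0.12 ± 0.054 (limma adjusted p = 0.132). The peptide gene Rln3 had 0.052 ± 0.076 (limma adjusted p = 0.682). Rxfp2, the closest relative of Rxfp1 and the receptor of insulin-like peptide 3, was below the brightness filter, with means of 5.47 ± 0.11 in tamoxifen-labelled and 5.61 ± 0.14 in vehicle-labelled arrays (SD, n = 5 each). Rln1, a gene for relaxin itself, was also below it, at 6.36 ± 0.079 in tamoxifen-labelled and 6.53 ± 0.16 in vehicle-labelled arrays (SD, n = 5 each).

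Akip1 encodes A-kinase interacting protein 1, which binds the PKA catalytic subunit; in cultured rat cardiomyocytes its level is known to rise with hypertrophic stimuli. Its log2 signal was 9.55, 9.81, 9.59, 9.57 and 9.56 in tamoxifen arrays 1 to 5, against 8.53, 8.71, 8.63, 8.43 and 8.62 in vehicle arrays 1 to 5. The groups lay 0.84 apart at their nearest, and 4 of the 5 tamoxifen-labelled arrays fell within 9.55 to 9.59 while array 2 stood above them. The mean was 9.62 ± 0.11 in tamoxifen-labelled and 8.58 ± 0.11 in vehicle-labelled arrays (SD, n = 5 each), a log2 fold change of 1.03 ± 0.064 (SE), or 2.04-fold. Without tamoxifen array 2 the log2 fold change was 0.98 ± 0.054. Of the 13870 tested genes 16, or 0.115%, were higher by 1 or more on the log2 scale and past the threshold, Rxfp1 and Akip1 among them. Both were picked from this contrast, so nothing is read from their place there. Without vehicle array 4 both lay under 1, Rxfp1 at 0.98 and Akip1 at 0.99. The residual SD of Akip1, 0.11, exceeded that of 65.7% of tested genes, well under the 0.34 of Rxfp1.

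The stretch before the Akip1 start is shown because the groups lay farthest apart for Akip1. It covers the 250 bases before the RefSeq start (GRCm38.p6, chr7:109703428-109703677, plus strand), with the 1 match to a nuclear receptor core site in capitals.
Akip1: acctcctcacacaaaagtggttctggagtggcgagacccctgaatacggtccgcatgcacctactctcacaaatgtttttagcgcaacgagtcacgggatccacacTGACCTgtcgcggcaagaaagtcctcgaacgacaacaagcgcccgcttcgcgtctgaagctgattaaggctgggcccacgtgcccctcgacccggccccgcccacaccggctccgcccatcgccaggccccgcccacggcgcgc
The capitals read AGGTCA on the other strand and lie 144 to 139 bases before the start. That site, which nuclear receptors such as the PGC-1 partner ERRalpha use as the core of longer elements, stood in 4607 of 32851 such promoter windows. The stretch also held 3 GC boxes (GGGCGG, searched on both strands), all on the other strand. At least 1 such box on either strand stood in 32.7% of windows. It held no cyclic AMP response element (CRE) and no longer element searched. A match of letters is not evidence of binding.

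Prkar1a encodes the type I alpha regulatory subunit, which holds the catalytic subunits of PKA inactive until cyclic AMP binds. Its log2 signal was 12.62, 12.68, 12.58, 12.53 and 12.65 in tamoxifen arrays 1 to 5, against 12.20, 12.30, 12.24, 12.05 and 12.33 in vehicle arrays 1 to 5. No array of one group reached the other, and vehicle array 4 was again the lowest. The mean was 12.61 ± 0.059 in tamoxifen-labelled and 12.22 ± 0.11 in vehicle-labelled arrays (SD, n = 5 each), a log2 fold change of 0.39 ± 0.057 (SE), or 1.31-fold. Its residual SD, 0.088, lay just under the median of all tested genes.

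Prkar1a has 6 starts in the RefSeq promoter table. The window before start 5 held a full CRE, the palindrome TGACGTCA bound by the CREB family, which stood in 1.55% of all windows. It is shown with 11 bases on each side and the CRE in capitals (GRCm38.p6, chr11:109650889-109650918, plus strand), because it was the only full CRE in the windows searched for the measured genes.
Prkar1a: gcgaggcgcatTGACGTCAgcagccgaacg
The CRE core TGACG, of which the full CRE contains one on each strand, stood in 17.8% of windows and was found before starts 2, 4 and 5 of Prkar1a. The windows of starts 4 and 5 overlap, and the core before start 4 is the same site as a core before start 5. The promoter table held 4 of the 6 measured genes, Rxfp1 and Adcy6 not among them. The other elements searched on both strands were the ERR element TCAAGGTCA (0.387% of windows), the NR4A element AAAGGTCA (1.34%) and the EGR element GCGTGGGCG (0.536%), and none matched in the windows of these 4 genes. The ERR and NR4A elements both contain AGGTCA, so a match to either is also a match to that core. Adcy5 had 4 GC boxes before its start, and Adra1b had 1 before 1 of its 2 starts. Prkar1a had GC boxes before starts 3, 5 and 6.

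The other PKA genes moved less. Prkar2a, the type II alpha regulatory subunit that anchoring proteins bind, rose by 0.22 ± 0.047 (limma adjusted p = 0.00259), at 10.64 ± 0.059 in tamoxifen-labelled and 10.42 ± 0.036 in vehicle-labelled arrays (SD, n = 5 each) and with no overlap. The catalytic subunit gene Prkacb did not pass, at 0.010 ± 0.060 (limma adjusted p = 0.932), a value whose sign differed between scalings. The regulatory subunit genes Prkar1b (0.088 ± 0.061, limma adjusted p = 0.335) and Prkar2b (0.20 ± 0.080, limma adjusted p = 0.0793) and the inhibitor gene Pkia (0.090 ± 0.054, limma adjusted p = 0.263) did not pass either. With single arrays left out, Prkar2b passed without tamoxifen array 3 or vehicle array 2 (limma adjusted p = 0.0372 and 0.011). Beside Prkar1a, 1 of 8 tested PKA genes was higher and 0 lower by limma (0 lower at an unadjusted p under 0.05 too), with a median log2 fold change of 0.089 against 0.014 over all tested genes. Since Prkaca was not analysed, the sum of the catalytic subunits is unknown here.

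Adcy5 and Adcy6 encode the main adenylyl cyclases of the cardiomyocyte, a closely related pair that calcium inhibits. Adcy5 read 9.57, 9.66, 9.48, 9.51 and 9.55 in tamoxifen arrays 1 to 5, against 9.35, 9.35, 9.39, 9.26 and 9.36 in vehicle arrays 1 to 5. Every tamoxifen-labelled array was above every vehicle-labelled one, by 0.09 at the nearest. The mean was 9.55 ± 0.069 in tamoxifen-labelled and 9.34 ± 0.049 in vehicle-labelled arrays (SD, n = 5 each), a log2 fold change of 0.21 ± 0.049 (SE), or 1.16-fold. It was among the steadier genes, with a residual SD of 0.060 that exceeded that of 11.3% of tested genes.

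Adcy6 leaned the other way. It read 10.32, 10.35, 10.27, 10.34 and 10.40 in tamoxifen arrays 1 to 5, against 10.50, 10.47, 10.43, 10.30 and 10.47 in vehicle arrays 1 to 5. Of the vehicle-labelled arrays, 4 lay above all tamoxifen-labelled ones, and vehicle array 4 lay below 4 of them. The mean was 10.34 ± 0.047 in tamoxifen-labelled and 10.43 ± 0.079 in vehicle-labelled arrays (SD, n = 5 each), a log2 fold change of -0.098 ± 0.051 (SE), short of the threshold. With quantile normalization it passed as lower, at -0.13 ± 0.043. The other cyclases did not follow Adcy5 as a family. Adcy7, known from immune and other non-muscle cells, rose by 0.25 ± 0.061 (limma adjusted p = 0.00643), and the other 4 tested cyclases were not called. Among them Adcy4 stood at -0.006 ± 0.060 (limma adjusted p = 0.959) and Adcy9 at -0.004 ± 0.061 (limma adjusted p = 0.971), with a sign that turned for Adcy9 under median centring and for both with single arrays left out. Of 10 macrophage markers 8 rose as well, with values given further on, and their part in the change of Adcy7 was not tested.

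Adra1b encodes an alpha-1 adrenergic receptor that couples to Gq. It was the 1 measured gene of the group that fell, with a log2 signal of 8.28, 8.49, 8.34, 8.35 and 8.34 in tamoxifen arrays 1 to 5, against 8.75, 8.63, 8.52, 8.59 and 8.65 in vehicle arrays 1 to 5. The groups did not overlap, though tamoxifen array 2 came within 0.03 of vehicle array 3. The mean was 8.36 ± 0.078 in tamoxifen-labelled and 8.63 ± 0.084 in vehicle-labelled arrays (SD, n = 5 each), a log2 fold change of -0.27 ± 0.055 (SE), or 1.20-fold lower. Without tamoxifen array 2, whose signals ran high over all genes, it was -0.30 ± 0.049. Of 9 adrenergic receptor genes listed, 2 had a probe set of their own symbol alone. The second, the presynaptic receptor gene Adra2c, was below the brightness filter, at 6.37 ± 0.16 in tamoxifen-labelled and 6.45 ± 0.16 in vehicle-labelled arrays (SD, n = 5 each). No beta receptor was analysed here.

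A pair of arrays recurred at the ends of these orders. Tamoxifen array 2 was the highest of its group in 4 genes, and lay above the group mean by 0.19 for Akip1, 0.13 for Adra1b, 0.11 for Adcy5 and 0.068 for Prkar1a. Its median deviation over all tested genes was 0.11. Vehicle array 4 was the lowest of its group in 5 of the 6 genes, and lay below the group mean by 0.62 for Rxfp1, 0.17 for Prkar1a, 0.15 for Akip1, 0.13 for Adcy6 and 0.082 for Adcy5. Its median deviation over all tested genes was -0.024. With each array left out in turn, the log2 fold change of Akip1 stayed between 0.98 and 1.06 and that of Rxfp1 between 0.98 and 1.29, and 4 genes were called higher and 1 lower each time.

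**Figure D2:**
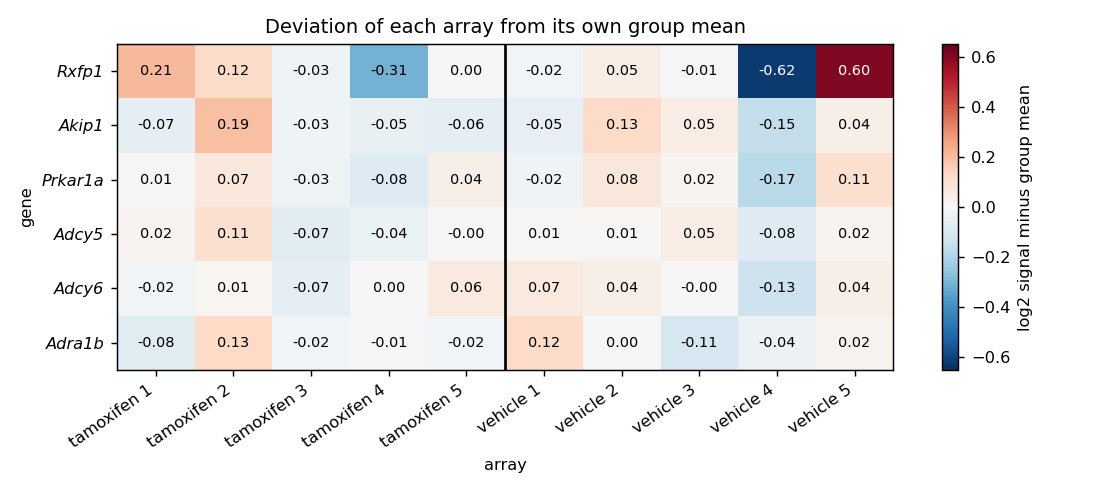
Log2 signal of each gene (rows) in each array (columns) minus the mean of its own group, with tamoxifen-labelled arrays left of the line and vehicle-labelled arrays right of it; red is above and blue below the group mean. Vehicle array 4 is below its group mean in all 6 genes, and the widest deviations, -0.62 and 0.60, are those of Rxfp1 in vehicle arrays 4 and 5.

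The patterns over the 10 arrays were set beside those of all other tested genes, predicted genes (Gm number or Rik names) skipped. Each profile was set to 0 at its vehicle mean, and likeness was the root mean square difference between profiles on the log2 scale, which small changes make small. Nearest to Rxfp1 were the water channel gene Aqp8 (0.24), Lgi2 (0.26) and the neuropeptide receptor gene Npy4r (0.26). Nearest to Akip1 were the myosin light chain gene Myl9 (0.12), skeletal alpha-actin Acta1 (0.12) and Efhd2 (0.14), with log2 fold changes of 1.03, 1.08 and 1.16. Nearest to Prkar1a were Smyd2 (0.036), a methyltransferase gene, then Ube2g2 (0.039) and the receptor kinase gene Grk3 (0.049). Nearest to Adcy5 were Klhl31 (0.022), Gps1 (0.024) and Eloa (0.026). Nearest to Adra1b were Mgme1 (0.024), a nuclease gene of mitochondrial DNA upkeep, Mrps28 (0.050) of the mitochondrial ribosome and Them4 (0.051). Nearest to Adcy6 were Dynll2 (0.034), Luc7l3 (0.036) and the thyroid hormone receptor gene Thra (0.039). These likenesses include the difference between the groups and describe these 10 arrays alone.

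The rest of the pathway was read from 14 lists that were chosen with earlier results of these data known. Apart from the genes above, 189 of their genes were tested, of which 38 were higher and 13 lower. That is 27.0% called, against 22.1% of all tested genes, with a median log2 fold change of 0.034 against 0.014. The list of CREB factors and targets alone, with 21 tested genes, held 11 of the 38 higher ones. The rise of its early response genes was known when the list was made, so nothing is read from the share called. Of 22 tested G protein genes 2 were higher and 1 lower, and of 21 phosphodiesterase genes 1 was higher and 1 lower. The Gi subunit gene Gnai2 (0.042 ± 0.048, limma adjusted p = 0.584) and the cyclic AMP phosphodiesterase genes Pde3a (-0.062 ± 0.054, limma adjusted p = 0.458) and Pde4d (0.040 ± 0.055, limma adjusted p = 0.662) did not pass. Phospholamban (Pln), the PKA target that restrains the calcium pump, did not pass either, at 14.39 ± 0.025 in tamoxifen-labelled and 14.34 ± 0.016 in vehicle-labelled arrays (SD, n = 5 each; limma adjusted p = 0.509).

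**Figure D3:**
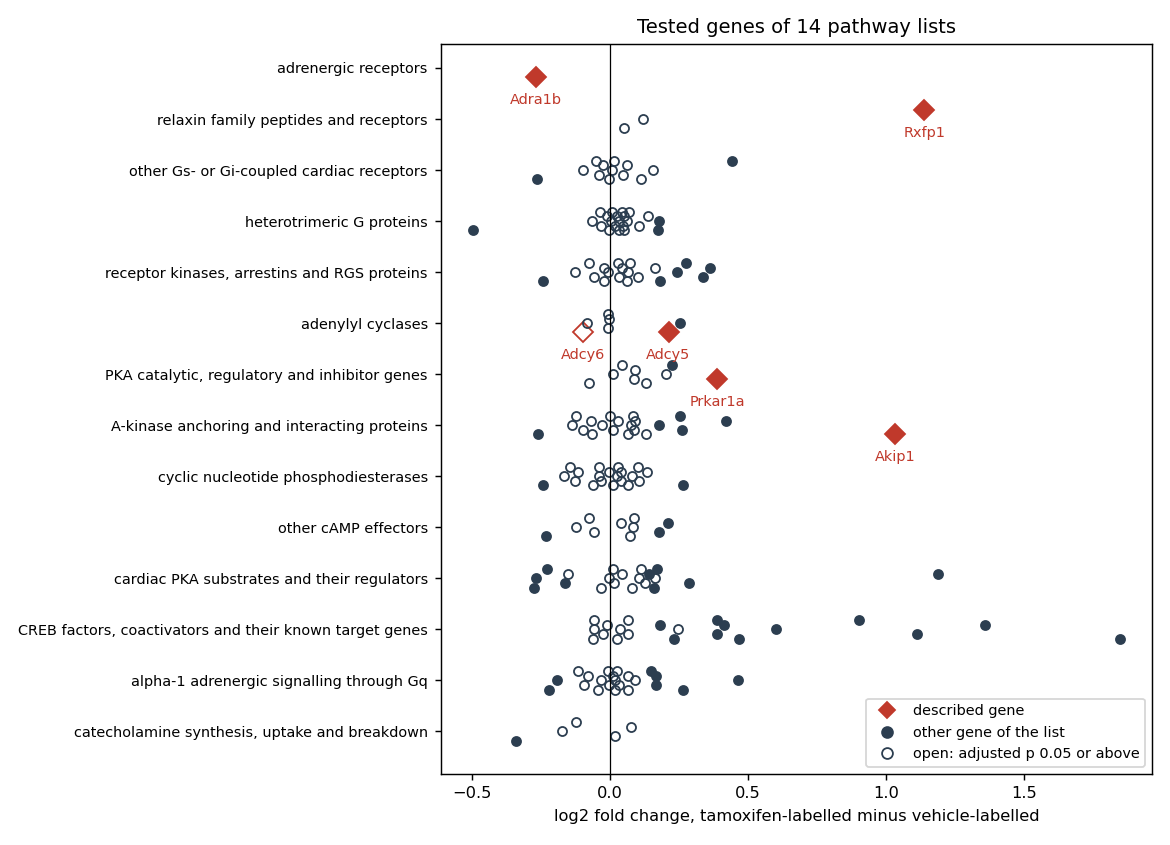
Log2 fold change, tamoxifen-labelled minus vehicle-labelled (x axis), of each tested gene in 14 pathway lists (rows); red diamonds are the described genes, dark circles the other genes of a list, and open symbols those with an adjusted p of 0.05 or above. Rxfp1 and Akip1 lie to the right of the other tested genes of their lists, and the list of CREB factors and targets holds 11 genes called higher and 0 lower.

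Genes that end or restrain receptor signals went both ways. Grk3, a kinase that switches off active receptors, rose by 0.36 ± 0.051 (limma adjusted p = 7.62e-05), whereas Grk5 (0.16 ± 0.13, limma adjusted p = 0.417) and the arrestin gene Arrb1 (0.10 ± 0.085, limma adjusted p = 0.430) did not pass. In that list of receptor kinases, arrestins and RGS proteins 5 of 20 were higher and 1 lower. Over all tested genes 13.7% were higher and 8.31% lower. The higher ones of the list were Grk3, Rgs16 (0.28 ± 0.050, limma adjusted p = 0.000819), Rgs18, Rgs2 and Rgs19. The lower one was Rgs6 (-0.24 ± 0.053, limma adjusted p = 0.00319), whose protein pairs with the G protein subunit made from Gnb5. Gnb5 fell as well, by 0.50 ± 0.069 (limma adjusted p = 6.49e-05). Chrm2, the muscarinic receptor through which the vagus nerve slows the heart, fell by 0.26 ± 0.052 (limma adjusted p = 0.00164), and it was the 1 of 13 other cyclic AMP-linked receptors that fell. The 1 that rose was the prostaglandin receptor gene Ptger4 (0.44 ± 0.062, limma adjusted p = 7.76e-05), which macrophages also express.

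Of 20 tested anchoring and scaffold genes besides Akip1, 4 were higher and 1 lower. Pakap rose by 0.42 ± 0.068, Akap6, which places PKA at the nuclear envelope, by 0.25 ± 0.052, and the Z-disc gene Ldb3 by 0.26 ± 0.050, and Akap7, which ties PKA to calcium channels and phospholamban, fell by 0.26 ± 0.054 (limma adjusted p of 0.00125 to 0.00229 for the last 3 and 0.000285 for Pakap). Among cardiac PKA substrates and their regulators 5 of 20 were higher and 4 lower. The widest of these was Kcne1, the potassium channel subunit that PKA regulation of the slow delayed current needs, which rose by 1.19 ± 0.096 (limma adjusted p = 1.68e-07). The potassium channel gene Kcnq1 of the same list fell (-0.23 ± 0.070, limma adjusted p = 0.0275). The calcium channel subunit gene Cacna2d1 (-0.28 ± 0.052, limma adjusted p = 0.00117) and the lipase gene Lipe (-0.27 ± 0.055, limma adjusted p = 0.00244) fell too.

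CREB is the transcription factor that PKA activates. In the list of CREB factors, coactivators and known target genes 11 of 21 were higher and 0 lower by limma (0 lower at an unadjusted p under 0.05 too), with a median log2 fold change of 0.23. The higher ones were mostly early response genes, led by Nr4a3 (1.85 ± 0.14, limma adjusted p = 8.75e-08) and Egr1 (1.36 ± 0.12, limma adjusted p = 5.62e-07). Ppargc1a, described above, is 1 of the 11. The other 10 genes of the list were not called, among them the CREB gene Creb1 itself (0.038 ± 0.052, limma adjusted p = 0.661). Nor were the target genes Per1 (0.25 ± 0.14, limma adjusted p = 0.226) and Pck1 (-0.012 ± 0.0705, limma adjusted p = 0.93). The early response genes also answer to calcium, growth factor and stress signals, and their rise was among the results known when the list was made. Downstream of alpha-1 receptors 5 of 22 genes were higher and 2 lower, with the protein kinase C gene Prkca at 0.46 ± 0.065 (limma adjusted p = 8.14e-05) and the phospholipase C gene Plcd1 at -0.22 ± 0.058 (limma adjusted p = 0.0123). Of 5 tested genes of catecholamine handling, the monoamine oxidase gene Maob fell by 0.34 ± 0.048 (limma adjusted p = 7.20e-05) and the other 4 were not called.

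Markers of macrophages and fibroblasts moved with the groups, and those of other cells mostly did not. Of all tested genes 13.7% were higher. The mean log2 signal of 10 macrophage markers was 9.01 to 9.28 in the tamoxifen-labelled arrays and 8.78 to 8.99 in the vehicle-labelled arrays, with 8 of 10 higher and 0 lower, among them Cd68 (0.40 ± 0.071, limma adjusted p = 0.000697). That of 10 fibroblast markers was 10.09 to 10.31 in the tamoxifen-labelled and 9.88 to 10.03 in the vehicle-labelled arrays, with 7 of 10 higher and 0 lower, among them Mfap5 (0.44 ± 0.067, limma adjusted p = 0.000166). The other 3 fibroblast markers were not called: Pdgfra (0.018 ± 0.077), Tcf21 (0.046 ± 0.080) and Dcn (0.10 ± 0.043). Of 8 endothelial markers 1 was higher (Cldn5), of 9 smooth muscle and pericyte markers 2 were higher (Cnn1 and Acta2), and of 8 cardiomyocyte markers 1 was lower (Ryr2). The call of Acta2 was lost without tamoxifen array 3 or 5, and that of Ryr2 without tamoxifen array 5 or vehicle array 1, 3 or 5 (limma adjusted p from 0.0508 to 0.0647). Of 6 tested atrial markers 1, Nppa, was higher and 5 were not called, with a median log2 fold change of -0.104 over the tested ones. The mean log2 signal of all 7 atrial markers varied widely between the tamoxifen-labelled arrays, from 9.17 to 10.12. In the vehicle-labelled arrays it ran from 9.44 to 9.68. None of the tested markers of lymphocytes (3), erythroid cells (2), neurons and Schwann cells (3), adipocytes (3) or skeletal muscle (4) was called by limma, and 1 lymphocyte marker was lower at an unadjusted p under 0.05. For the macrophage and fibroblast lists no marker was lower at that unadjusted p. The part of these cells in the values of Rxfp1, Akip1 and the other measured genes was not tested.

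**Figure D4:**
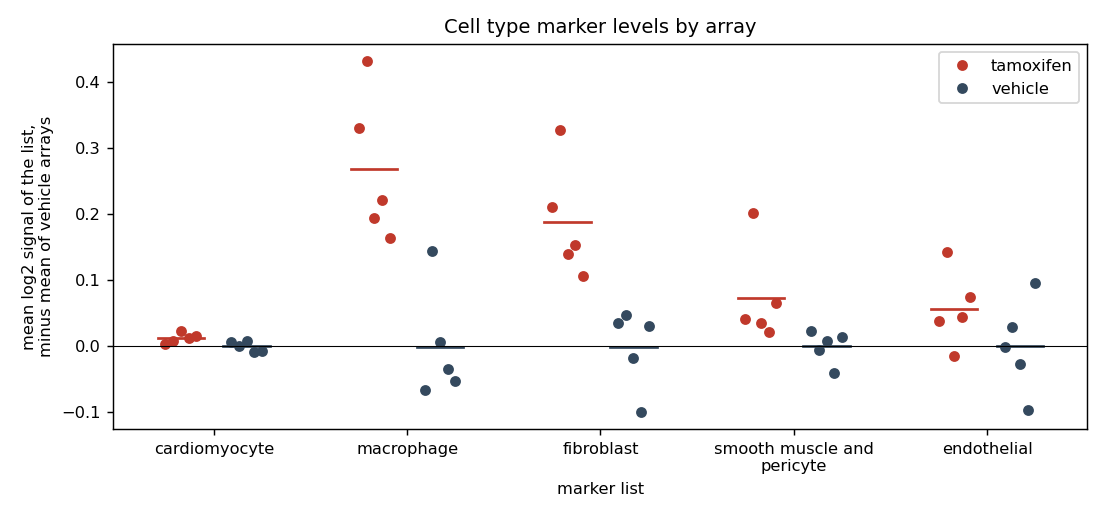
Mean log2 signal of 5 marker lists (x axis) in each array, minus the mean of the vehicle-labelled arrays (y axis); tamoxifen-labelled arrays are red and left, vehicle-labelled arrays dark blue and right, and short lines are group means. The groups lie apart for the macrophage and fibroblast lists, whose means differ by 0.27 and 0.19, and overlap for the cardiomyocyte list, whose means differ by 0.013.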

How the data were processed

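The deposited table gives log2 signals, 1 array per mouse. The submitters' processing notes name RMA and Affymetrix Expression Console 1.1; RMA removes background, brings the arrays to a common distribution and sums up each probe set. Of 35556 probe sets, 21789 had 1 gene symbol in the platform annotation, 1621 several and 12146 none. Genes were named from the first kind, by the probe set with the highest mean. Symbols were checked against RefSeq (GRCm38.p6, names only; 0 updated, 91 identifiers not found). Genes below a mean log2 signal of 6.55, the lowest 30% of these probe sets, were left out, which removed 6068 genes.

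The two-sided comparison of the groups used lmFit and eBayes of limma 3.58.1 (R 4.3.3) without covariates, with Benjamini-Hochberg adjustment over 13870 genes. Promoter windows were the 250 bases before each RefSeq start. The members, lists and tests were chosen with earlier results of these data known. Named were the members, a set of paralogs and regulators, up to 4 called genes per pathway list and 2 per marker list with the smallest p, and the 3 genes nearest each member; not all are printed. The code was tested on simulated data. The alternatives tried were a replicate block, quantile normalization, median centring, no or a 50% brightness filter, the mean of probe sets, probe sets of several genes, array weights, a trended and robust prior, and each array left out. Precision is limited by the 5 arrays in each group.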

Additional observations from a re-analysis of the deposited data

Results flagged for a closer look

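Within a group of 5 arrays, a value was singled out where its gap to the nearest other array exceeded 0.71 of the group's range (Dixon's ratio), which chance alone gives in about 5% of groups. Among the 12 groups of the 6 measured genes this happened once. Akip1 read 9.81 in tamoxifen array 2, with the other 4 tamoxifen-labelled arrays at 9.55 to 9.59.

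Among 148 groups of the other named genes it happened 11 times. Mgme1, Mrps28, Gps1, Eloa, Npy4r and Dynll2 were named because their patterns were nearest to that of a measured gene. Each was flagged in an array that was the highest or lowest of its group for that measured gene. Such flags follow in part from the choice of genes, so the count is not set against the 5%. Tamoxifen array 2 stood above its group for Mgme1 (8.33, others 8.17 to 8.19), Mrps28 (9.33, others 9.09 to 9.14), Prkar1b (8.13, others 7.79 to 7.88) and Mfap5 (11.02, others 10.64 to 10.73). Vehicle array 4 stood below its group for Gps1 (9.52, others 9.61 to 9.63) and Eloa (9.14, others 9.23 to 9.26). Vehicle array 5 stood above its group for Npy4r (7.34, others 6.93 to 7.02) and below it for Pde4a (8.35, others 8.55 to 8.61). The rest were Dynll2 in tamoxifen array 5 (11.93), Cldn5 in tamoxifen array 3 (9.65) and Acta2 in vehicle array 3 (12.94).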

How the results depend on the processing

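Across 19 alternatives all 6 measured genes kept their direction and 5 kept their side of the threshold. The exception was Adcy6, which passed with quantile normalization (-0.13), so that 2 of the 6 genes were lower there in place of 1. Array weights raised the genes lower over all tested from 1153 to 1780, and those of the pathway lists from 13 to 21. Higher genes made up 62.3% of all calls, against 49.7% without tamoxifen array 2 and 51.7% with array weights; the cause was not tested. Leaving out each array in turn gave 1492 to 1960 genes higher and 939 to 1645 lower, and 28 to 36 and 10 to 18 in the pathway lists. The replicate numbers did not clearly pair the mice: same-numbered arrays had correlations of 0.039 to 0.203 in their deviations from the group means. With the replicate number as a block 2232 genes were higher and 1300 lower, the SE of Rxfp1 was 0.10 in place of 0.16, and no call of the 6 genes changed. Of 79 named genes, 9 changed their call under some alternative. The sign turned, or the value reached 0, for 3 that were never called: Adcy4 (0.0 with median centring, -0.045 to 0.032 with an array left out), Adcy9 (0.002 with median centring, -0.044 to 0.032) and Prkacb (-0.02 with quantile normalization, -0.03 with array weights, -0.03 to 0.04 with an array left out). Prkar2b passed with the block and without tamoxifen array 3 or vehicle array 2 (limma adjusted p = 0.0187, 0.0372 and 0.011). Under the 50% filter it was not tested. Signals carry no detection call, so how far low probe sets stand above background is unknown.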
